A study of Sus scrofa with 30 samples.

Results

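The 9 ssc-miRNAs described here are the arms of 5 miRNA hairpins that are often read in blood as platelet-enriched miRNAs, namely ssc-miR-28 (3p and 5p), ssc-miR-126 (3p and 5p), ssc-miR-151 (3p and 5p), ssc-miR-191 (1 arm, named without a suffix) and ssc-miR-425 (3p and 5p). They were taken by name, as every row of the deposited count table whose number after the species prefix was exactly that of 1 of these 5 hairpins. The table lists 411 ssc-miRNAs. Plasma of 3 male Göttingen minipigs was collected at 10 time points around a single total body irradiation (TBI) with 2.2 Gy of gamma rays. All 3 animals carried the same treatments, and no unirradiated animals were sequenced, so that time after TBI cannot be told apart from time itself. The animals were about 4 months old and were the vehicle arm of a countermeasure study. They all received subcutaneous dextrose injections on 2 days after TBI, and antibiotics when neutropenic, and none outlived the observation period. C7 and C1, taken 7 days and 1 day before TBI, formed the pre-TBI group. The later time points were 0d (6 h after TBI), 1d, 3d and 7d (Early), 10d and 14d (Mid), 17d (Late) and 20d (LR, late regression). The study drew the phases from a PCA of these very libraries, which makes them no independent grouping of the values compared.

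Platelets have no nucleus but hold a large store of miRNAs inherited from megakaryocytes, and they release part of it into plasma in vesicles and protein complexes. Plasma miRNAs also come from red cells, white cells, endothelium and liver. A TBI of this size damages the bone marrow, so platelets and white cells are lost over the following weeks. A miRNA hairpin gives up to a pair of mature strands, the 5p and the 3p arm, which are cut from 1 precursor but are loaded and degraded separately. In the RefSeq annotation of the pig assembly Sscrofa11.1, the miR-28 hairpin lies within LPP, which encodes a protein of cell adhesion sites. The miR-126 hairpin lies within EGFL7, a gene of endothelial cells, and miR-126 itself is best known from endothelium and megakaryocytes. The miR-151 hairpin lies within PTK2, which encodes focal adhesion kinase. The hairpins of miR-191 and miR-425 both lie within DALRD3, and form a cluster. The build named by the study differs from this assembly, so positions are not given.

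The seed, bases 2 to 8 from the 5′ end, sets most of what a miRNA binds. Seeds of 4 of the 9 arms were listed in the study's supplementary tables of networks. They are shown because they tell whether the 2 arms of miR-425 have the same seed. They are written 5′ to 3′, and every letter is part of the seed, hence the capitals.
miR-28-3p: ACUAGAU
miR-151-5p: CGAGGAG
miR-425-3p: UCGGGAA
miR-425-5p: AUGACAC
The 4 seeds all differ from each other, including those of the 2 arms of miR-425. Sequences of the other 5 arms were not used here, so that the arms of the other hairpins, and miR-191 with miR-425, could not be compared.

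Each library is 1 animal at 1 time point. Of the 30 libraries, 6 (all of minipig 3, from 3d to 20d) held 0 to 17 counts in all and none from the 9 members, and they were left out. The 24 libraries kept held 24341 to 550316 counts (median 240612), and comprised 6 pre-TBI, 10 Early, 4 Mid, 2 Late and 2 LR libraries. From 3d onwards every value rests on minipigs 1 and 2. Depth moved with phase. The totals were 35762 to 103083 at Mid and 29159 to 63441 at Late, against 172339 to 524084 at Early. The smallest library of all was that of minipig 1 at C7. The levels below are in CPM, that is counts scaled to a common library total, after TMM scaling, which sets libraries on 1 scale through the bulk of their miRNAs. Mature miRNAs are of nearly equal length, so no length entered the scale. The counts are reads after PCR, so intervals from counting would cover counting error only.

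Together, the 9 members took 1.68% to 3.62% of the counts in the pre-TBI libraries. Their share was 5.39% and 8.64% in the 3d libraries of minipigs 1 and 2, above every other library, and 0.751% and 1.25% at 17d. ssc-miR-191 made up between 11.4% (minipig 1 at 17d) and 84.6% (minipig 2 at 3d) of the members' counts. Before TBI, ssc-miR-191 stood at 13.63 ± 0.32 log2 CPM (mean ± SD, n = 6), and its lowest pre-TBI library was above the highest one of any other member. It was followed by ssc-miR-425-5p (11.72 ± 0.93), ssc-miR-151-5p (11.13 ± 0.46), ssc-miR-28-3p (10.47 ± 0.58) and ssc-miR-425-3p (10.31 ± 0.36 log2 CPM). The lower levels were those of ssc-miR-126-5p (9.41 ± 0.51), ssc-miR-126-3p (9.40 ± 0.48), ssc-miR-151-3p (9.28 ± 0.15) and ssc-miR-28-5p (8.45 ± 0.50 log2 CPM). Below ssc-miR-191, the pre-TBI ranges of neighbours in this order overlapped. By its median over the 24 libraries, ssc-miR-191 was the 11th most abundant of the 411 ssc-miRNAs, and ssc-miR-28-5p was 262nd.

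The 9 members did not move as 1 group. Over the 36 pairs of members, the Pearson correlation of log2 CPM across the 24 libraries ran from -0.70 (ssc-miR-191 with ssc-miR-425-3p) to 0.72 (ssc-miR-191 with ssc-miR-28-3p), with a median of 0.01. These are descriptions over libraries that share animals and depth. The arms of a hairpin were hardly closer, with 0.42 for miR-28, 0.43 for miR-425, 0.01 for miR-151 and -0.08 for miR-126. In plasma, these miRNAs were thus not a set that rose and fell together, although all are named as platelet-enriched.

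**Figure D1:**
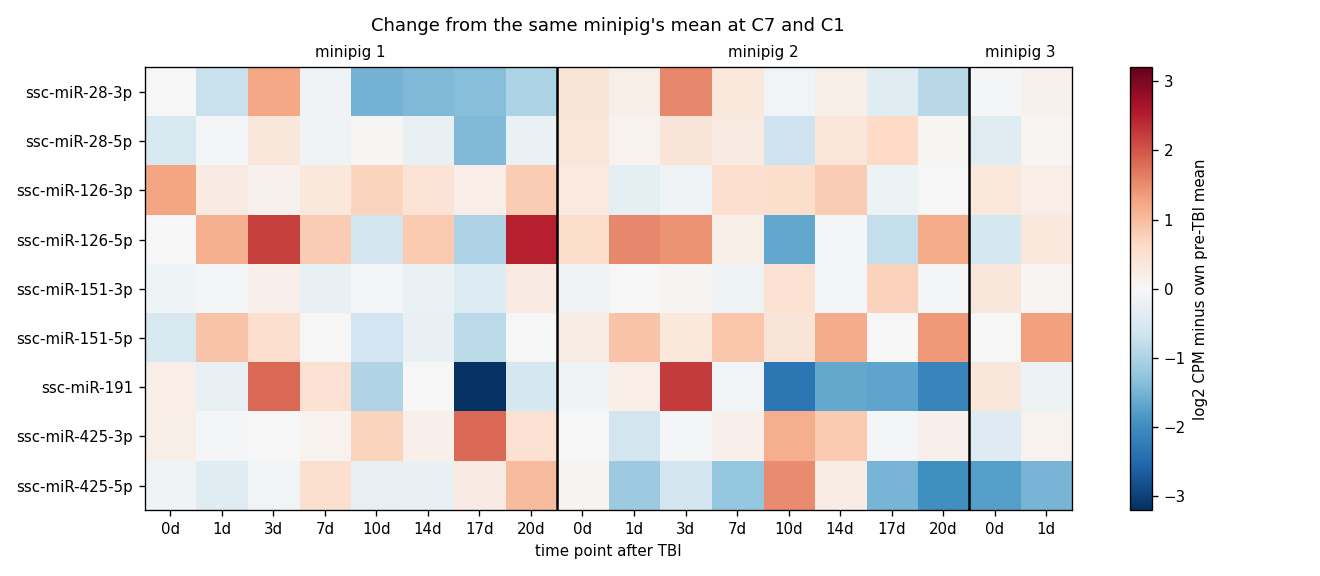
Change of each of the 9 ssc-miRNAs (rows) in the 18 libraries after TBI (columns, by minipig and time point), as log2 CPM minus the mean of the same minipig's C7 and C1 libraries; red is higher and blue lower. ssc-miR-191 is red at 3d and blue from 17d in both minipigs, ssc-miR-126-5p is red at 3d and at 20d, and ssc-miR-151-3p is pale almost throughout.

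Each phase was compared with pre-TBI by edgeR's quasi-likelihood test over all 411 ssc-miRNAs, with Benjamini-Hochberg adjustment over all of them. No member had an adjusted p under 0.05 in any phase. That was the case for 0% of all ssc-miRNAs at Early, Mid and LR, and 4.38% were called at Late. At an unadjusted p under 0.05, the limit of the study, 2 of 9 members differed at Early against 18.7% of all ssc-miRNAs. At Mid it was 1 member against 5.35%, at Late 2 members against 22.6%, and at LR 1 member against 5.6%. With 9 members, 1 or 2 of them is close to what these shares amount to. The median log2 fold change of the members was 0.24 at Early (all 411 rows: 0.02), 0.05 at Mid (all: 0.05), -0.61 at Late (all: 0.08) and 0.14 at LR (all: -0.01). At Late, 7 of the 9 were below pre-TBI, while 46.5% of all ssc-miRNAs were.

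By the same test, members were called at single time points only, and all these calls were of ssc-miR-191 or ssc-miR-126-5p. None of the calls held under every alternative, as given below. In a fit with each time point as a group, 2 members were called at 3d (ssc-miR-191 and ssc-miR-126-5p, both higher), where 1.22% of all ssc-miRNAs were called. The other calls were 1 member at 17d (ssc-miR-191, lower), where 4.87% of all were called, and 1 member at 20d (ssc-miR-126-5p, higher), where 0.73% were. No member was called at 0d, 1d, 7d, 10d or 14d, and 0.243% of all ssc-miRNAs were called at 14d and 0% at the others. At an unadjusted p under 0.05, 0 members differed at 0d, 7d and 14d (background 8.52%, 8.27% and 9%), 2 at 1d (12.2%) and 3 each at 3d (8.52%), 10d (7.3%) and 20d (7.06%). At 17d it was 3 members against a background of 23.8%. Between the pre-TBI time points themselves, C1 against C7, 0 members had an adjusted or an unadjusted p under 0.05 (background 0% and 0.73%). The DESeq2 Wald test called 3 members at 3d (5.11% of all ssc-miRNAs), 2 at 1d (6.08%), 1 at 17d (9%) and 1 at 20d (1.46%). By phase it called 1 member at Late (6.62% of all) and 1 for LR against Late (15.7%). The libraries of 17d and 20d are those of Late and LR, and the fold changes are the same in both fits. The adjusted p differs because the fit by time point takes the spread within time points, and the fit by phase takes it within phases.

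ssc-miR-191 is among the most abundant miRNAs of platelets and many other cells. It rose at 3d and was lower at 17d. Before TBI it ranged from 9876 to 19075 CPM (median 12449, n = 6). At 0d it was at 12278, 14304 and 16008 CPM in minipigs 1, 2 and 3, and at 1d at 9077, 17707 and 11142 CPM. These values overlapped with those before TBI. At 3d, minipig 1 had 37231 and minipig 2 had 72372 CPM, both above every other library of the series. At 7d, both were back within the pre-TBI range, with 15008 and 14381 CPM. The 3d level was 4.22-fold that of pre-TBI (log2 fold change 2.08 ± 0.45 SE, adjusted p = 0.0249, edgeR). Without minipig 1 or minipig 2, which left a single 3d library, the log2 fold change was 2.32 and 1.73. The call was lost with totals alone as the scale (adjusted p = 0.0938). It was also lost without minipig 3, which has no 3d library (2.12, adjusted p = 0.15, edgeR). With the C7 library of minipig 1 left out, it was just past the limit (2.06, adjusted p = 0.0514).

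From 10d, ssc-miR-191 was low. Minipigs 1 and 2 had 5466 and 3103 CPM at 10d, 10567 and 4937 CPM at 14d, 1187 and 4774 CPM at 17d, and 7151 and 3515 CPM at 20d. Of these 8 libraries, 7 lay below the lowest pre-TBI library, the exception being minipig 1 at 14d. At 17d the level was 0.232 times that before TBI (log2 fold change -2.11 ± 0.56, adjusted p = 0.0349 in the edgeR fit by time point, and adjusted p = 0.118 in the fit by phase). The 17d libraries were small, and these levels rest on 25 and 304 counts of ssc-miR-191. Without minipig 1 the log2 fold change at 17d was -1.60 and without minipig 2 it was -3.59, each from a single 17d library. Without minipig 3, which has no library after 1d, it was -2.14 (adjusted p = 0.157, edgeR). At 10d (-1.60, adjusted p = 0.61) and 20d (-1.28, adjusted p = 0.55, edgeR), the difference passed the unadjusted limit only.

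Of the arms of miR-28, the 3p arm was the more abundant before TBI. ssc-miR-28-3p had its highest levels at 3d too, with 4081 CPM in minipig 1 and 3771 CPM in minipig 2, against 985 to 2997 CPM before TBI. These 2 libraries were above all the others. The log2 fold change at 3d was 1.39 ± 0.37 and did not pass the adjustment over all ssc-miRNAs (adjusted p = 0.0666, edgeR). It did so without the C7 library of minipig 1, the highest of this arm before TBI (1.70, adjusted p = 0.0107), and by DESeq2 (adjusted p = 0.00306). The arm was at 665 and 974 CPM at 17d and at 852 and 686 CPM at 20d, in all 4 libraries below the lowest pre-TBI library. The differences were -0.85 ± 0.44 at 17d (adjusted p = 0.23) and -0.96 ± 0.42 at 20d (adjusted p = 0.55, edgeR). ssc-miR-28-5p stayed between 142.5 and 590 CPM over all libraries and had no unadjusted p under 0.05 at any time point, with log2 fold changes of -0.30 to 0.30. It had 3 counts in minipig 1 at 17d, where its level carries a large counting error.

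**Figure D2:**
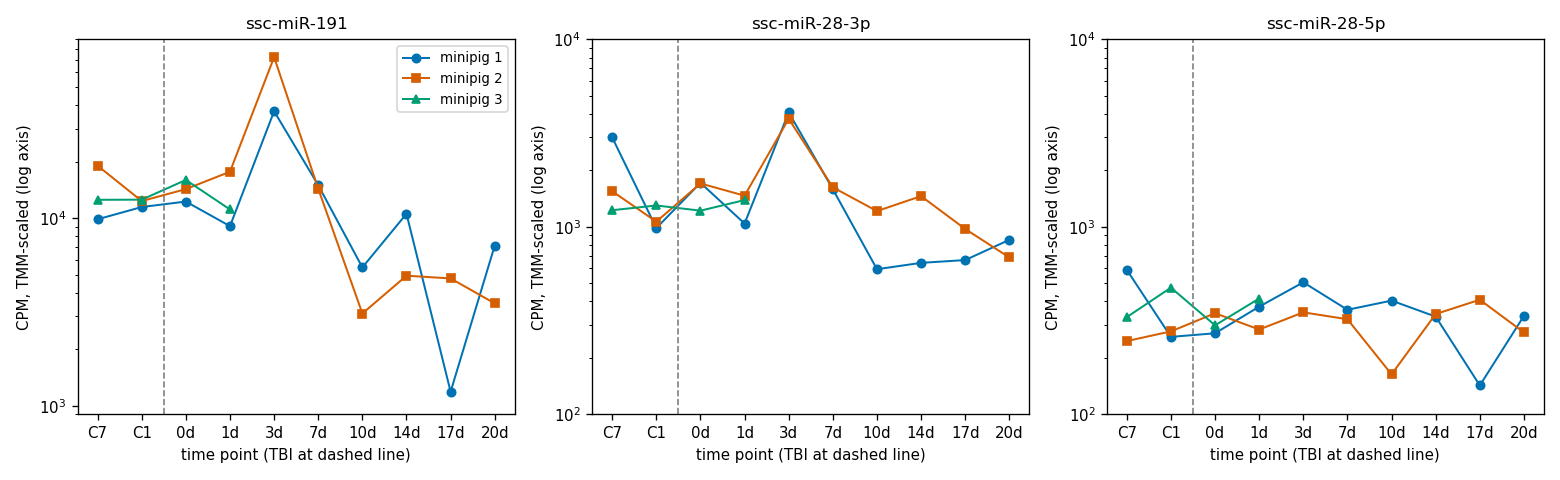
Levels of ssc-miR-191, ssc-miR-28-3p and ssc-miR-28-5p in CPM after TMM scaling (log axis) at each time point, 1 line for each minipig; the dashed line marks TBI and minipig 3 ends at 1d. ssc-miR-191 reaches 37231 and 72372 CPM at 3d and ssc-miR-28-3p 4081 and 3771 CPM, while ssc-miR-28-5p is at 506 and 350 CPM there, within its pre-TBI range.

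The arms of miR-126, a miRNA of endothelium and megakaryocytes that acts on vessel integrity, had a correlation of -0.08 over the 24 libraries. Before TBI they were about equal, with 344 to 960 CPM for ssc-miR-126-5p and 344 to 867 CPM for ssc-miR-126-3p. The counts of ssc-miR-126-5p were 0.846 to 1.21 times those of ssc-miR-126-3p in the 6 libraries. After TBI, ssc-miR-126-5p was called higher at 3d and at 20d, and ssc-miR-126-3p was not called at any time point. The ratio of the arms, tested by phase below, did not pass the adjustment.

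ssc-miR-126-5p was at 566, 1012 and 525 CPM at 0d and at 1293, 1985 and 997 CPM at 1d in minipigs 1, 2 and 3. All 3 libraries at 1d were above the pre-TBI range (log2 fold change 0.99 ± 0.34, adjusted p = 0.226, edgeR). At 3d it was at 2666 CPM in minipig 1 and 1844 CPM in minipig 2, 3.15-fold above pre-TBI (log2 fold change 1.66 ± 0.37, adjusted p = 0.0282, edgeR). With the minipig as a block this call was lost (1.54, adjusted p = 0.0625), as it was without minipig 3 (1.79, adjusted p = 0.0931, both edgeR). Without minipig 1 or minipig 2, which left a single 3d library, the log2 fold change was 1.29 and 1.91. At 7d it had 1023 and 773 CPM. At 10d it was down to 380 and 210 CPM (log2 fold change -1.28 ± 0.46, adjusted p = 0.61, edgeR), resting on 16 and 9 counts. It was at 1028 and 641 CPM at 14d and at 285 and 393 CPM at 17d (6 and 25 counts), where the log2 fold change was -1.05 ± 0.46 (adjusted p = 0.181, edgeR).

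At 20d ssc-miR-126-5p was at 3272 CPM in minipig 1, its highest level in any library, and at 1550 CPM in minipig 2. Both lay above the pre-TBI range. The level was 3.37-fold that before TBI (log2 fold change 1.75 ± 0.37, adjusted p = 0.0302 by time point, and adjusted p = 0.337 by phase, edgeR). Without minipig 1 or minipig 2, which left a single 20d library, the time point value was 1.09 and 1.98. The call by time point was lost with the minipig as a block (1.62, adjusted p = 0.094) and without minipig 3 (1.76, adjusted p = 0.142, both edgeR). Without the C7 library of minipig 1 the call was lost as well. For LR against Late, the log2 fold change was 2.80 ± 0.75 (adjusted p = 0.0588, edgeR), and 2.73 with the minipig as a block (adjusted p = 0.0486). With the block and all libraries thinned to the same depth it was 2.60 (adjusted p = 0.0837). In that comparison 0 members were called without the block, where 0.73% of all ssc-miRNAs were. At an unadjusted p under 0.05 it was 2 members, ssc-miR-126-5p and ssc-miR-151-5p (1.16 ± 0.55, adjusted p = 0.151), against 32.1% of all.

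ssc-miR-126-3p was at 590 and 703 CPM at 3d and at 936 and 769 CPM at 20d in minipigs 1 and 2, with log2 fold changes of -0.13 ± 0.33 and 0.27 ± 0.32 (adjusted p = 0.996 and 0.723, edgeR). Its highest level was 1335 CPM, in minipig 2 at 14d. The ratio of the arms within a library does not depend on scaling. The count of ssc-miR-126-5p was 4.51 and 2.62 times that of ssc-miR-126-3p at 3d, 0.44 and 0.196 times at 10d, and 3.49 and 2.01 times at 20d in minipigs 1 and 2. These 6 libraries were all outside the pre-TBI range of the ratio, and so were most other libraries after TBI. The ratio was 0.438 and 0.56 in minipigs 1 and 3 at 0d, and 0.481 and 0.586 in minipigs 1 and 2 at 17d. Only minipig 2 at 0d (1.08) and minipig 3 at 1d (1.16) lay within that range. The 10d ratios rest on 16 and 9 counts of ssc-miR-126-5p. By phase, the mean log2 ratio moved by 0.46 (Early), -1.03 (Mid), -0.92 (Late) and 1.40 (LR). In the two-sided exact permutation test that moved phase labels within each minipig, p was 0.356, 0.0833, 0.111 and 0.111. With 2 libraries a phase, 0.111 is the smallest p that this test can give, and none of the 20 arm and cluster ratios tested (5 pairs in 4 phases) passed the adjustment over them.

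**Figure D3:**
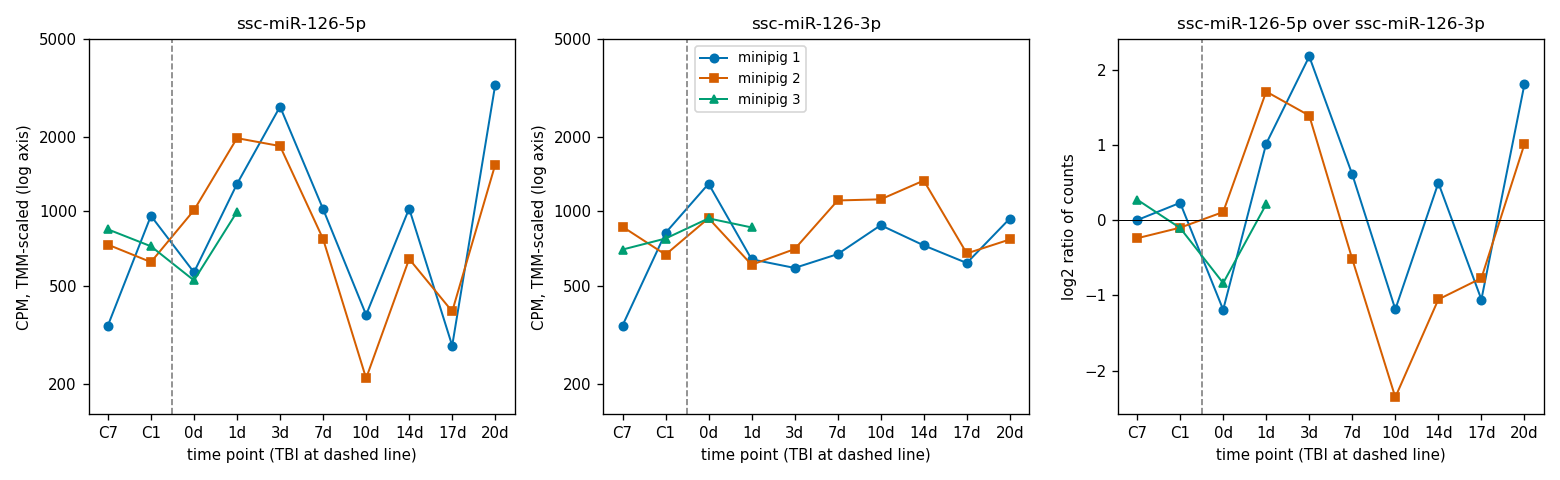
ssc-miR-126-5p and ssc-miR-126-3p in CPM after TMM scaling (log axis) and the log2 ratio of their counts at each time point, 1 line for each minipig; the dashed line marks TBI. ssc-miR-126-5p has a first peak at 3d in minipig 1 (2666 CPM) and at 1d in minipig 2 (1985 CPM), and is high again at 20d in both, while ssc-miR-126-3p reaches at most 1335 CPM.

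The arms of miR-151, which lies in the focal adhesion kinase gene and has been tied to cell migration, differed in level and in spread. ssc-miR-151-5p had its highest level in each of minipigs 1 and 3 at 1d, with 4833 CPM in minipig 1, 3035 CPM in minipig 2 and 6600 CPM in minipig 3. Before TBI it ranged from 1277 to 3218 CPM, so that 2 of the 3 libraries were above that range. Each of the 3 was above both of its own animal's pre-TBI libraries. The log2 fold change at 1d was 1.06 ± 0.31 and did not pass the adjustment (adjusted p = 0.185, edgeR). By 3d it was at 3781 and 2015 CPM in minipigs 1 and 2. At 17d it was at 1425 and 1602 CPM, and at 20d at 2578 and 4194 CPM.

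ssc-miR-151-3p was the steadiest of all 411 ssc-miRNAs. Its SD over the 24 libraries was 0.24 log2 CPM, and 0% of the ssc-miRNAs had a smaller one. It lay between 475 and 974 CPM in every library, and both of these extremes were 17d libraries, in minipig 1 (10 counts) and minipig 2 (62 counts). Its log2 fold changes against pre-TBI were between -0.19 and 0.28 at all 8 time points. For comparison, 87.3% of all ssc-miRNAs had a smaller SD than ssc-miR-191 (1.19) and 78.6% a smaller one than ssc-miR-126-5p (0.98 log2 CPM). The count of ssc-miR-151-5p was 1.64 times (minipig 2 at 17d) to 10.2 times (minipig 3 at 1d) that of ssc-miR-151-3p. In the exact permutation test of this ratio against pre-TBI, p was 0.17 (Early), 0.972 (Mid), 0.111 (Late) and 0.556 (LR). None of these passed the adjustment, so a change in the ratio was not shown.

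miR-425 is the cluster partner of miR-191, and its 5p arm varied both between animals and within them. ssc-miR-425-5p was at 1327 and 1970 CPM before TBI in minipig 1, at 2889 and 5466 CPM in minipig 2 and at 6268 and 5659 CPM in minipig 3. Minipig 1 was the lowest at both time points. At Early the log2 fold change was -0.93 ± 0.41 (adjusted p = 0.23, edgeR), and the 10 Early libraries, at 1228 to 4214 CPM, overlapped with those before TBI. Minipigs 1 and 2 then parted. At 10d minipig 1 had 1355 and minipig 2 had 11387 CPM, the highest level of this arm, and at 20d it was 3260 and 1007 CPM, the lowest level being that of minipig 2.

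ssc-miR-425-3p was at 835 to 1703 CPM before TBI. It was at 1711 and 2800 CPM at 10d in minipigs 1 and 2 (log2 fold change 0.80 ± 0.38, adjusted p = 0.633, edgeR), both above the pre-TBI range. At 17d it was at 3657 CPM in minipig 1 and 1225 CPM in minipig 2, where the log2 fold change of 0.89 ± 0.38 (adjusted p = 0.174, edgeR) came from minipig 1. Without that animal it was -0.26, the opposite direction.

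miR-191 and miR-425 are transcribed from 1 cluster, yet ssc-miR-191 and ssc-miR-425-5p had a correlation of -0.03 over the 24 libraries. The counts of ssc-miR-191 were 2.001 to 7.33 times those of ssc-miR-425-5p before TBI, with both libraries of minipig 1 at 5.82 or above and both of minipig 3 at 2.22 or below. At 3d the ratio was 24.4 in minipig 1 and 27.3 in minipig 2, above every other library. It was 0.273 in minipig 2 at 10d and 0.614 in minipig 1 at 17d, where ssc-miR-425-5p exceeded its partner. At Early the mean log2 ratio was 1.27 above that before TBI, 3.18 ± 0.92 (SD, n = 10) against 1.91 (n = 6), with p = 0.0126 in the exact permutation test and adjusted p = 0.252 over the 20 ratios. The ratio of ssc-miR-425-5p to ssc-miR-425-3p had a difference of -0.67 at Early on the log2 scale (exact permutation p = 0.043, adjusted p = 0.317).

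**Figure D4:**
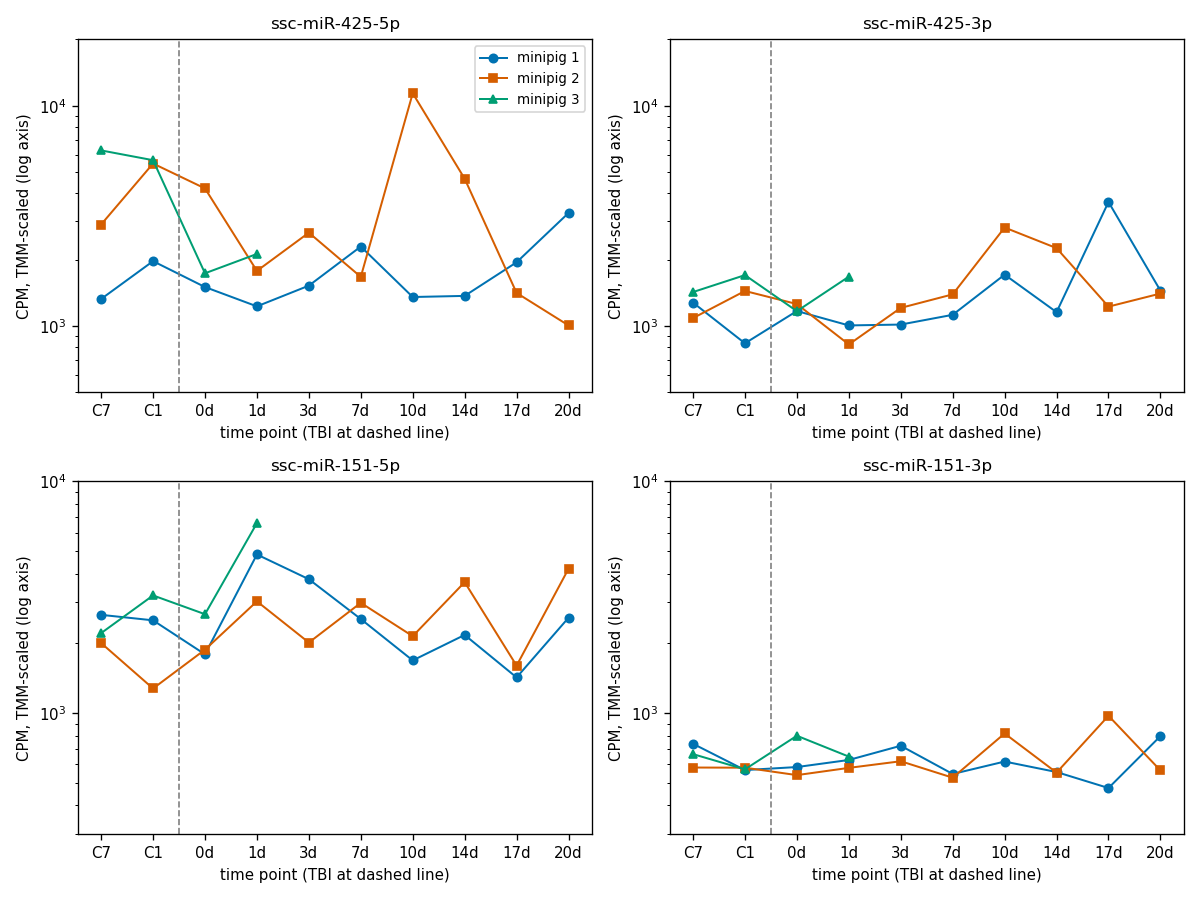
ssc-miR-425-5p, ssc-miR-425-3p, ssc-miR-151-5p and ssc-miR-151-3p in CPM after TMM scaling (log axis) at each time point, 1 line for each minipig; the dashed line marks TBI. ssc-miR-425-5p separates minipigs 1 and 2 at 10d (1355 and 11387 CPM), ssc-miR-151-5p is high at 1d, and ssc-miR-151-3p lies between 475 and 974 CPM throughout.

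Other miRNAs known from platelets were examined beside the members, together with those of other sources. Plasma RNA mixes sources, so that fewer cells and less RNA released per cell cannot be told apart. The 12 other platelet rows (arms of miR-21, miR-22, miR-23a, miR-24, miR-26a, miR-103, miR-221 and miR-222) summed to 10619 to 20226 CPM before TBI and to 28589 and 44525 CPM in the 3d libraries, above the pre-TBI range. Of these 12, 0 had an adjusted p under 0.05 at 3d, and 4 were higher and 1 lower at an unadjusted p under 0.05. The sum followed ssc-miR-22-3p, the most abundant of them, with a log2 fold change of 1.90 at 3d (adjusted p = 0.0666, edgeR). At 10d the 12 rows summed to 7818 and 10990 CPM and at 14d to 8302 and 9421 CPM, mostly below the pre-TBI range. At these time points 0 of the 12 were called, and their median log2 fold changes were -0.15 and -0.16. That of ssc-miR-22-3p at 10d was -1.60 (adjusted p = 0.61, edgeR). At 17d the same rows summed to 9973 and 24579 CPM, 1 just below and 1 above the pre-TBI range. Of them, 1 was called higher, ssc-miR-26a (log2 fold change 1.83, adjusted p = 0.0435, edgeR).

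The 3 red cell rows (miR-451, miR-486 and miR-144) summed to 8977 to 88289 CPM before TBI and to 32138 and 57337 CPM at 3d, within that range. At 17d they summed to 8359 and 10193 CPM, 1 below that range and 1 near its lower end. The 9 white cell rows summed to 7358 to 118418 CPM before TBI, 14656 and 30455 CPM at 3d, and 4900 and 211955 CPM at 17d. Of these 9, 1 was called higher at 3d, ssc-miR-342 (log2 fold change 1.503, adjusted p = 0.00947, edgeR). Over the 9 rows, the median log2 fold change at 3d was -0.03. The most abundant of them before TBI, ssc-miR-146a-5p and ssc-miR-146b, were at -1.08 and -1.11 (adjusted p = 0.953 for both, edgeR). The liver rows (miR-122 and miR-192) summed to 3539 to 5146 CPM before TBI, and were above that range at 3d, with 7809 and 7812 CPM, and at 20d, with 8400 and 10292 CPM, the 2 time points at which ssc-miR-126-5p was called, and also at 14d (7678 and 7730 CPM). Of the liver rows, ssc-miR-192 was called higher at 20d (log2 fold change 1.48, adjusted p = 0.0302, edgeR). The other row, ssc-miR-122, had log2 fold changes below 0 at these time points, -0.34 at 3d, -1.06 at 14d and -1.39 at 20d (adjusted p = 0.953, 0.536 and 0.448, edgeR), so that the higher sums came from ssc-miR-192. The 5 muscle rows stayed at 1260 to 2309 CPM in the pre-TBI libraries and the later phases. No row of these lists was at 0 in any library kept. The platelet list as drawn up also held miR-223, found in both platelets and white cells, and miR-197, but no row was found for them. Likewise, the liver list held miR-194, for which no row was found. The part that any of these sources had in the members' levels was not tested.

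Among the other ssc-miRNAs with a median of at least 100 CPM (381 rows with the members included), those whose log2 CPM was most like that of a member over the 24 libraries were listed, as a description. For ssc-miR-191 they were ssc-miR-22-3p (r = 0.88), ssc-miR-9841-3p (0.86) and ssc-miR-423-5p (0.85). For ssc-miR-28-3p they were ssc-miR-342 (0.91), a lymphocyte miRNA, ssc-miR-17-5p (0.77) and ssc-miR-22-3p (0.66). For ssc-miR-126-5p they were ssc-miR-27a (0.83), ssc-miR-27b-3p (0.82) and ssc-miR-24-3p (0.75), which come from shared miRNA clusters. The closest row to ssc-miR-126-3p was ssc-miR-503 (0.75), and none of the first 3 rows was shared by the arms of miR-126. ssc-miR-425-5p was closest to ssc-miR-10a-3p (0.90), ssc-miR-425-3p to ssc-miR-9852-3p (0.85), ssc-miR-151-5p to ssc-miR-7142-5p (0.87), ssc-miR-151-3p to ssc-miR-30a-5p (0.67) and ssc-miR-28-5p to ssc-miR-129a-3p (0.62). The libraries share animals and differ in depth, so these values carry no p.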

How the data were processed

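Plasma small RNA (TruSeq libraries, NextSeq) was sequenced from 3 minipigs at 10 time points. The authors trimmed reads with cutadapt, aligned them with Bowtie (Bowtie2 2.2.3.0 in the submitters' processing notes) to the pig genome and miRBase, and deposited raw counts per ssc-miRNA without normalization. How the 411 rows were chosen is not given in the sources used here. Here, libraries under 1000 counts were left out. Members and lists were chosen with earlier results of these data known. All members met the rule for named miRNAs, with the 3 rows closest to each.

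Counts were scaled by TMM and tested with edgeR 4.0.16 (R 4.3.3, quasi-likelihood, no block, Benjamini-Hochberg over all 411 rows, all of which passed a filter of over 0.5 CPM in 3 or more libraries). Fold changes have a prior count of 0.125 and levels one of 2. The test gives no SE of its own. The SE printed with a log2 fold change is its absolute value over the square root of the test's F statistic, an approximation. Arm ratios, with 0.5 added to each count, were compared by exact permutation within minipigs (numpy 2.4.6). The code was tested on simulated data. Libraries of 1 animal are paired by design, with a mean correlation of deviations from phase means of 0.169 over 78 pairs, against -0.102 over 130 pairs from different animals. The samples of a group are repeated draws of few animals, so p values measure the spread between these libraries. Alternatives were another scale, tool, filter, baseline or depth, the block, and single animals left out.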

Additional observations from a re-analysis of the deposited data

Results flagged for a closer look

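Among 42 groups of levels or ratios with 4 to 10 libraries, 2 held a library far from the others by Dixon's limit, a rule that chance meets about 1 time in 20. For ssc-miR-126-3p before TBI, the lowest library was that of minipig 1 at C7, at 8.46 log2 CPM, with a gap to the nearest library of 0.716 of the range of the group. This library has the smallest total of those kept (24341 counts), and the level rests on 7 counts. For ssc-miR-191 before TBI, the highest library was that of minipig 2 at C7, at 14.2 log2 CPM, with a gap of 0.634 of the range.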

How the results depend on the processing

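Of the log2 fold changes followed under the alternatives, only that of ssc-miR-425-3p turned direction, at Late to -0.10 without the minipig 1 libraries at C7 and 17d (chosen after seeing the data), and with animals left out in turn, where it ran from -0.26 to 1.18 both at Late and at 17d. The count of members called at 3d (2) was 0 with totals alone as the scale, in a fit of only the groups compared and with counts thinned to the smallest library, and 1 with the replicate block. At 17d (1) it was 0 under the same 3 settings. At 20d (1) it was 0 under them, with the replicate block and without the minipig 1 library at C7. For LR against Late (0) it was 1 with the replicate block and 1 by DESeq2, which also gave 1 at Late and 2 at 1d. The replicate block changed no other call, and with thinned counts it gave none for LR against Late. Without minipig 3, which has no library at these time points, the count was 0 at 3d, 17d, 20d and Late. Without minipig 1 or minipig 2 a single library was left there, so those counts are not given. With each of the 24 libraries as the TMM reference, ssc-miR-191 and ssc-miR-126-5p were called at 3d under all 24, ssc-miR-191 at 17d under 14 ssc-miR-126-5p at 20d under 11 and ssc-miR-28-3p at 3d under 4. The thinned counts, the fit of only the groups compared and DESeq2 at single time points, the left-out C7 library and the TMM references were added after seeing the data.

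Ratios that turned direction with an animal left out were ssc-miR-28-3p over 5p at Mid (-1.15 to 0.46) and Late (-0.74 to 0.16), ssc-miR-151-5p over 3p at Mid (-0.35 to 0.27) and LR (-0.35 to 1.10), and ssc-miR-191 over ssc-miR-425-5p at Mid (-2.41 to 0.58), Late (-2.59 to 0.24) and LR (-0.86 to 0.29). Levels that moved by more than their SD were, with totals alone as the scale, ssc-miR-126-3p at Late (9.12), ssc-miR-151-5p at Late (10.34) and ssc-miR-425-3p at LR (10.55 log2 CPM). With libraries under 100000 counts left out they were ssc-miR-28-3p (10.52), ssc-miR-126-3p (10.39) and ssc-miR-151-5p (11.85 log2 CPM) at Mid, and Late gave no value. In the small libraries of Mid and Late, members with few counts limit what can be seen.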
